A study of Mus musculus with 16 samples.

Results

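Doxorubicin-treated mouse ES cells that lack Cfp1 were compared with wild type (WT) ES cells given the same treatment. The comparison was defined by the sample labels alone: 8 of the 16 deposited samples carried a doxorubicin label, and these were 2 technical replicates (runs) of each of 4 of the 8 biological replicates in the series. There were 2 biological replicates of treated Cfp1-/- cells and 2 of treated WT cells, and the runs of each were summed, so that n = 2 per group. WT cells were E14TG2a, an ES cell line labelled as strain 129/OLA, and the Cfp1-/- cells were labelled with the same strain. Both lines grew in serum medium with LIF, and both treated groups received doxorubicin for 6 h, at 1 μM by the design text and the treatment protocol, although the treatment label of the samples is written in millimolar. Each genotype was a single line, so any difference between the lines that has nothing to do with Cfp1 cannot be told apart from the deletion. The sources used here do not say whether the biological replicates were separate cultures, so the p-values measure the spread between these samples, which may be partly technical.

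Cfp1, encoded by Cxxc1, is a subunit of the Set1 histone methyltransferase complexes, which place trimethyl groups on lysine 4 of histone H3 at active promoters. Its CXXC zinc finger binds DNA that holds unmethylated CpG dinucleotides, and such DNA is found at the promoters of most broadly expressed mammalian genes. Doxorubicin is an anthracycline that traps topoisomerase II on DNA and causes double-strand breaks. In ES cells with intact p53, breaks lead to p53-dependent transcription of cell cycle, death and repair genes. The question of the comparison was how far transcript levels differ between cells with and without Cfp1 once both have met this stimulus.

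The summed counts of the 4 treated biological replicates lay between 14880589 and 18551086. The runs of replicate 2 of both treated lines agreed within sampling noise (chi-square divided by its degrees of freedom, 0.998 and 1.012), whereas those of replicate 1 differed by more, with 9.611 in WT and 42.924 in Cfp1-/- cells. In the second run of treated Cfp1-/- replicate 1, 439 of 529 genes with at least 200 counts in the first run were at 0 on chromosome 19 past 5.8 Mb and on chromosomes X and Y, against 0 of 7791 genes elsewhere. That run was left out for the 1562 genes of this region. Over genes outside the region the chi-square ratio of the same runs was 15.624. Values per library below are normalized counts, which are counts divided by a median-of-ratios size factor, and they are given as replicate 1 and then replicate 2.

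Cxxc1 was measured first as a check on the labels. Its normalized count was 802 and 874 in the treated WT libraries and 5.02 and 0.966 in the treated Cfp1-/- libraries. These were 5 reads and 1 read, or 0.599% and 0.115% of the WT mean. The log2 fold change was -8.07 (SE 0.351), with an edgeR adjusted p of 2.72e-06, in the direction the labels give. None of the other 10 subunits of the Set1 complexes on the list, which include the catalytic subunits Setd1a and Setd1b, passed the test. Setd1a had 707 and 567 normalized counts in WT and 872 and 802 in Cfp1-/- cells, a log2 fold change of 0.42 (SE 0.182, edgeR adjusted p = 0.117), and Ash2l, a shared core subunit, had -0.29 (SE 0.168, edgeR adjusted p = 0.222).

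Transcript levels differed widely between the treated lines, in both directions. Of 15765 genes with enough counts to test, 2533 (16.1%) were higher and 1818 (11.5%) were lower in treated Cfp1-/- cells at an adjusted p under 0.05 (edgeR quasi-likelihood test, Benjamini-Hochberg adjustment). Higher genes were 58.2% of those that passed, and 69.3% (2974 higher and 1315 lower) when libraries were scaled to their total counts, a scaling that moved all log2 fold changes by 0.092. With 1 treated library left out, the number higher was 1286 without Cfp1-/- replicate 1, 1104 without Cfp1-/- replicate 2, 1497 without WT replicate 2 and 1938 without WT replicate 1, and the number lower was 783, 584, 1035 and 1519. Without the second runs of both treated replicates 1, the runs that differed from their first runs beyond sampling noise, the numbers were 2521 and 1806. The main fit did not pair libraries by replicate number. With that number as a block, a fit that assumes that same-numbered libraries vary together, 3409 genes were higher and 2634 lower. Counts for gene lists from the block or with 1 library left out are to be read beside these totals, since 16.1% and 11.5% belong to the main fit. In these bulk samples a lower share of cells of some kind and less RNA per cell cannot be told apart.

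A gene is called here when it also differed by at least 2.5-fold and averaged at least 200 normalized counts in the 4 treated libraries. By that rule 266 genes (1.69% of those tested) were higher and 161 (1.02%) were lower. The called higher genes had a median of 182 normalized counts in WT and 697 in Cfp1-/- cells (median log2 fold change 1.71), and in 13 of them the WT mean was under 20, which is close to silence. The called lower genes fell from a median of 814 to 206 normalized counts (median log2 fold change -1.61), and 2 of them had a mean under 20 in Cfp1-/- cells. Genes chosen for being higher in Cfp1-/- cells have low WT counts partly by that choice, and lower genes the reverse. The contrast between these WT levels is therefore not a separate result. Differences over 8-fold were found in 29 called higher and 13 called lower genes, and over 4-fold in 90 and 38. The WT and Cfp1-/- libraries did not overlap in any called gene, and they did not overlap in 66.4% of all genes tested. The median log2 fold change over all genes tested was 0.028, and the median size of the difference regardless of direction was 0.42.

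Several of the genes with the largest increase were close to silent in treated WT cells and amply transcribed in treated Cfp1-/- cells. Hprt, the X-linked enzyme of purine salvage for which E14TG2a is known to be deficient, had 20.8 and 15.8 normalized counts in WT and 4191 and 4680 in Cfp1-/- cells (log2 fold change 7.95, SE 0.198, edgeR adjusted p = 8.16e-08). Kdm5d, a Y-linked H3K4 demethylase, had 3.91 and 3.16 in WT and 577 and 649 in Cfp1-/- cells (log2 fold change 7.42, SE 0.283). Genes with the largest increase were taken only from those whose libraries did not overlap. For both genes the deletion and other differences between the lines cannot be told apart here. The Y-linked genes Ddx3y (log2 fold change 1.33) and Eif2s3y (0.81) were also higher, whereas Uty at 0.14 (SE 0.159, edgeR adjusted p = 0.538) did not pass. Eif2s3y did not pass, with an edgeR adjusted p of 0.0831, when the run that had lost chromosome Y reads was kept.

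Asz1, a germ cell protein of the piRNA pathway, had 2.60 and 3.16 normalized counts in treated WT cells and 411 and 430 in treated Cfp1-/- cells. Its log2 fold change was 7.14 (SE 0.372, edgeR adjusted p = 1.01e-05). Plagl1, an imprinted zinc finger transcription factor, had 3.91 and 25.3 in WT and 1111 and 926 in Cfp1-/- cells (log2 fold change 6.05, SE 0.481, edgeR adjusted p = 0.000102). In both genes all reads but a few came from the Cfp1-/- libraries. Adnp, which encodes a homeodomain and zinc finger protein of chromatin, had 85.9 and 31.6 in WT and 4083 and 3274 in Cfp1-/- cells (log2 fold change 6.03, SE 0.355). Ceacam20, of the carcinoembryonic antigen family of adhesion proteins, followed with 5.66 and Mylk3, a myosin light chain kinase of heart muscle, with 5.60. 1700013H16Rik and 1700011F14Rik, whose functions are not given here, had 6.56 and 6.04.

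**Figure D1:**
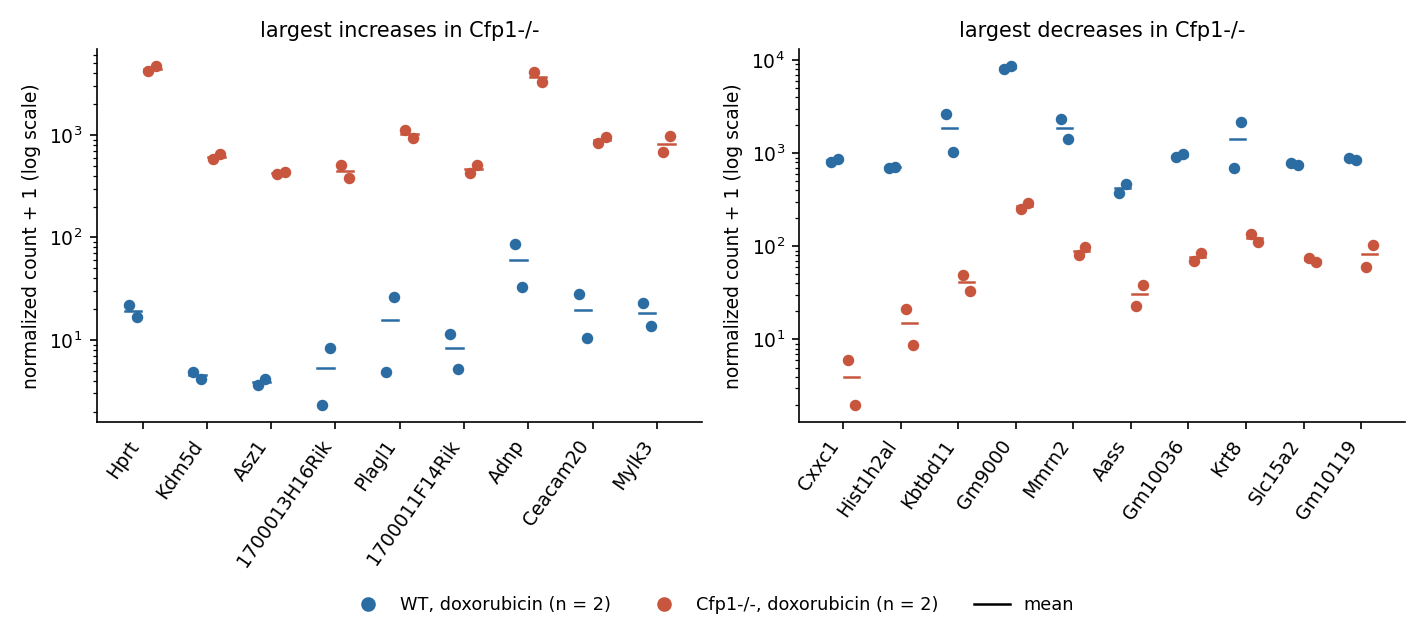
Normalized counts plus 1 (log axis) of the named genes with the largest increase (left) and the largest decrease (right) in treated Cfp1-/- cells, with 1 point per library (WT blue, Cfp1-/- red) and a bar at the mean of each group. Only called genes whose libraries did not overlap between the genotypes could be shown, so the points lie apart by choice. Hprt lies at 20.8 and 15.8 against 4191 and 4680, and Kbtbd11 at 2669 and 1025 against 48.2 and 31.9.

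Among the genes with the largest decrease, transcripts that were abundant in treated WT cells were scarce in treated Cfp1-/- cells. Kbtbd11, of the kelch and BTB domain family, had 2669 and 1025 normalized counts in WT and 48.2 and 31.9 in Cfp1-/- cells (log2 fold change -5.50, SE 0.470, edgeR adjusted p = 0.00016). Mmrn2, a multimerin of the extracellular matrix, had 2342 and 1405 in WT and 80.3 and 97.6 in Cfp1-/- cells (log2 fold change -4.37, SE 0.380). The WT replicates of both genes differed from each other by more than the Cfp1-/- replicates did. Slc15a2, a peptide transporter, was tighter, with 780 and 752 in WT and 73.2 and 66.7 in Cfp1-/- cells (log2 fold change -3.43, SE 0.203, edgeR adjusted p = 1.38e-05). Aass, the first enzyme of lysine breakdown, had 370 and 469 in WT and 22.1 and 37.7 in Cfp1-/- cells (log2 fold change -3.78, SE 0.374). Krt8, a keratin of simple epithelia, had 689 and 2172 in WT and 133 and 109 in Cfp1-/- cells (log2 fold change -3.54, SE 0.588, edgeR adjusted p = 0.00285). Hist1h2al, an H2A gene of the histone cluster (-5.64), and the predicted genes Gm9000 (-4.91), Gm10036 (-3.61) and Gm10119 (-3.39) were also among the largest, and their counts are uncertain because close copies of such genes share reads.

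Since Cfp1 binds unmethylated CpG, the CpG content at the 5′ ends of the genes that differed was read from the reference genome. The windows of 2 genes with a large increase and 2 with a large decrease are printed to show what a window with many CpGs and one with few look like. Each window holds 300 bases of NCBIM37, from 250 bases before to 50 bases from the annotated 5′ end of the gene, on the strand of the gene, with every CpG in capitals.
Plagl1, higher, chr10:12810247-12810546, plus strand: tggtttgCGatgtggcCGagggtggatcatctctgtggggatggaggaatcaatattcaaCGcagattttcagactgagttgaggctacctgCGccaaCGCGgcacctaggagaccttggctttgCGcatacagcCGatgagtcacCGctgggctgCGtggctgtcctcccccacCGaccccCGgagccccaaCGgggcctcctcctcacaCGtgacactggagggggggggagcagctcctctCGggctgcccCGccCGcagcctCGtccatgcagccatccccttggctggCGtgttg
Asz1, higher, chr6:18059012-18059311, minus strand: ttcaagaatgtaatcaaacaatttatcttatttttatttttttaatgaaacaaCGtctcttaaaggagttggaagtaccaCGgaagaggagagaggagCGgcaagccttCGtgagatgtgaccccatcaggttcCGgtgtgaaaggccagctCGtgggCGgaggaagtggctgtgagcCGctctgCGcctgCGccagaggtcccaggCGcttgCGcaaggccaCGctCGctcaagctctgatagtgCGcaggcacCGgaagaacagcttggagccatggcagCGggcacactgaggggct
Krt8, lower, chr15:101834724-101835023, minus strand: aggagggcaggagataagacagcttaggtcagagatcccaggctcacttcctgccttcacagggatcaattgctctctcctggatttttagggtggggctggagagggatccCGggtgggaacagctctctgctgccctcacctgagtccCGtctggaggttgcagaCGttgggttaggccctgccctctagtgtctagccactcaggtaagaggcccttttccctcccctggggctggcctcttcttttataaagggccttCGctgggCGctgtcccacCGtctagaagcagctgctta
Aass, lower, chr6:23082937-23083236, minus strand: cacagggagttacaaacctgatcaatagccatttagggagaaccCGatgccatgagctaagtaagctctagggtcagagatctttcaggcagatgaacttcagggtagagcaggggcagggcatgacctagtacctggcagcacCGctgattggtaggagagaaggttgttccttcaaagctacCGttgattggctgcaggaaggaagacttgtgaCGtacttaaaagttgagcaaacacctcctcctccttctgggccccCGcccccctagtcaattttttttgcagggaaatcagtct
The windows of Plagl1 and Asz1 held 19 and 17 CpGs, and those of Krt8 and Aass held 6 and 5. A window was taken as CpG-rich when its observed-to-expected CpG ratio was at least 0.6 and its GC share at least 0.5, which Plagl1 and Asz1 met and Krt8 and Aass did not. The contrast between the directions in these 4 windows is not that of the genes at large, where a smaller share of the higher than of the lower genes that passed was CpG-rich.

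Of all tested genes with a window, 8895 of 15761 (56.4%, 95% Wilson interval 55.7 to 57.2) were CpG-rich. Of the called higher genes 121 of 265 were (45.7%, 39.8 to 51.7), and of the called lower genes 80 of 161 (49.7%, 42.1 to 57.3). Over all genes that passed the test without the limits on fold and level, 45.6% of the higher and 63.1% of the lower genes were CpG-rich, with a median of 13 and 20 CpGs in the window against 17 over all tested genes. The called higher genes had a share of 45.9% on chromosomes 7 and 11 and 45.6% on the other chromosomes. The intervals cover counting error only and treat genes as independent. The genes that passed had a median of 130 normalized counts in treated WT cells when higher and 921 when lower. The CpG shares were not matched for transcript level, and the part of level in them was not tested. The 5′ end is that of the annotated gene and need not be the start in use in ES cells.

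**Figure D2:**
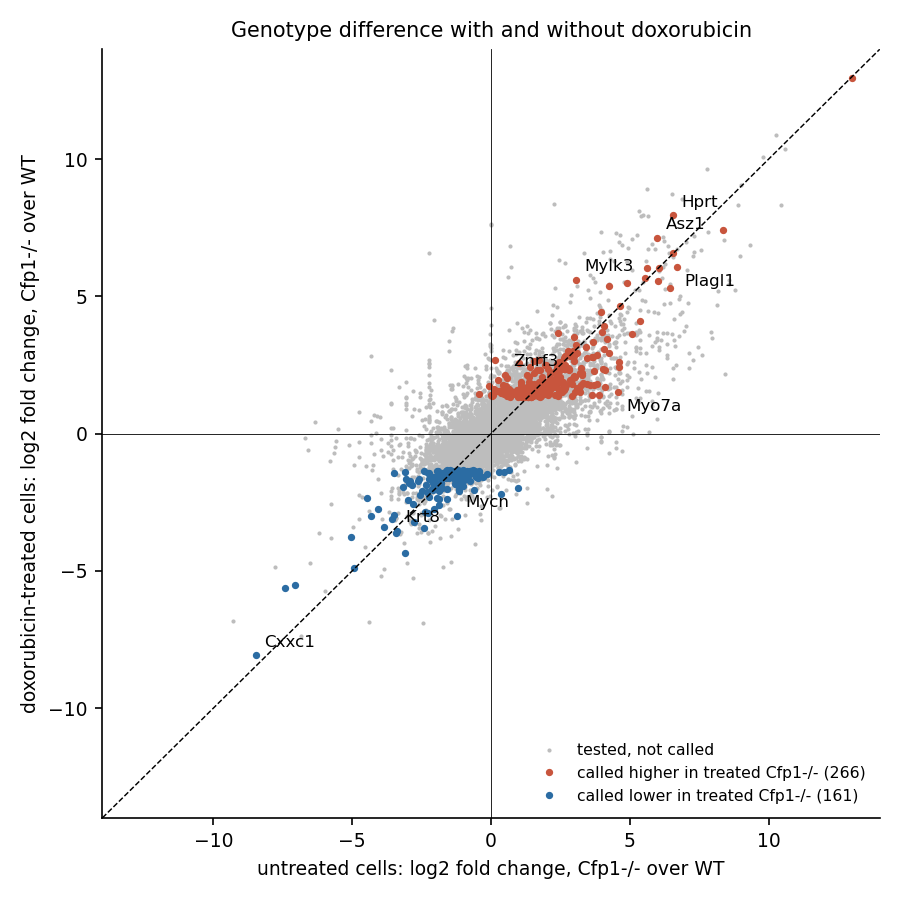
Log2 fold change between Cfp1-/- and WT in untreated cells (x axis) against the same in treated cells (y axis), 1 point per tested gene, with genes called higher (red) and lower (blue) in treated cells and a dashed line of equal differences. Called genes lie along that line (Pearson's r of 0.941 across the called genes and 0.774 across all 15765).

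Most of the difference between the treated lines was also present between the untreated lines, which are measured in 4 other libraries. In untreated cells 5569 genes (35.3% of those tested) differed between the genotypes at an adjusted p under 0.05. Of the 266 called higher genes 241 also passed with the same sign in untreated cells, with a median untreated log2 fold change of 1.95, and 25 did not pass there. Of the 161 called lower genes 139 passed with the same sign, with a median of -1.57, 21 did not pass and 1 passed with the opposite sign. Over all genes that passed in treated cells, 3120 passed in untreated cells with the same sign and 13 with the opposite sign. The fold changes had a Pearson's r of 0.774 across all tested genes, which are not independent, and of 0.941 across called genes, which were chosen for large treated differences. The treated and untreated comparisons share the lines and the replicate numbers but no library.

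The genotype difference itself differed between treated and untreated cells in few genes. An interaction test was passed by 42 genes (0.266% of those tested, edgeR adjusted p under 0.05), and 1740 had an unadjusted p under 0.05. With the replicate number as a block, a fit that assumes that same-numbered libraries vary together, 304 genes passed, and 0 passed without either of the treated Cfp1-/- libraries or without untreated Cfp1-/- replicate 1. In 35 of the 42 the difference was smaller in treated cells and in 7 it was larger. Myo7a, an unconventional myosin, had 451 and 548 normalized counts in treated WT and 1354 and 1449 in treated Cfp1-/- cells. In untreated cells it had 32.4 and 31.4 in WT against 865 and 617 in Cfp1-/- cells, so that the log2 fold change was 4.56 untreated and 1.51 treated. The change of the difference was -3.05 (edgeR adjusted p = 0.00992), and treated WT cells held more Myo7a than untreated WT cells did in every library.

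Znrf3, a membrane ubiquitin ligase that removes Wnt receptors, moved the other way. It had 777 and 834 normalized counts in treated WT and 3188 and 3857 in treated Cfp1-/- cells (log2 fold change 2.15, SE 0.148), against 815 and 715 in untreated WT and 1121 and 1008 in untreated Cfp1-/- cells (0.51). Mycn, the Myc family member most used by ES cells, had 918 and 1202 in treated WT and 130 and 131 in treated Cfp1-/- cells (log2 fold change -2.99, SE 0.213, edgeR adjusted p = 5.04e-05). In untreated cells it had 4743 and 5778 in WT against 1873 and 2582 in Cfp1-/- cells (-1.21), and the change of the difference was -1.79 (edgeR adjusted p = 0.0417). Both genes thus had a larger genotype difference under doxorubicin. Nek3, a kinase of the NIMA family, and Acad8, a mitochondrial enzyme of valine breakdown, also differed by more in treated cells, with log2 fold changes of 1.75 and 1.56 against -0.09 and 0.22 untreated. The reverse was found for Sned1 (-2.35 treated and -4.46 untreated), Sfmbt2 (-1.44 and -3.48), Ly6g6e (1.70 and 4.12) and Mlana (1.39 and 3.62), whose differences were smaller in treated cells. Cd68 changed sign, from 0.63 in untreated to -1.33 in treated cells, and both passed their own test.

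Most regulators and targets of p53 did not pass the test between the treated lines, and more of those that passed were lower than higher in Cfp1-/- cells. Mdm2, the ubiquitin ligase that degrades p53 and is itself a p53 target, had 32621 and 26255 normalized counts in WT and 26617 and 24937 in Cfp1-/- cells. Its log2 fold change was -0.17 (SE 0.161, edgeR adjusted p = 0.464). Cdkn1a, the cyclin-dependent kinase inhibitor p21, had 1794 and 1652 in WT and 1271 and 1167 in Cfp1-/- cells (log2 fold change -0.48, SE 0.224, edgeR adjusted p = 0.143). The libraries of the genotypes overlapped for Mdm2 and not for Cdkn1a, which passed in a fit of the treated libraries alone. Btg2, an antiproliferative gene, had -0.02 (SE 0.184), the death gene Bbc3 (Puma) -0.24 (SE 0.208), Bax, another death gene, 0.15 (SE 0.125) and Trp53 itself 0.33 (SE 0.141), and none of these passed. A p that misses the threshold does not show that these levels are equal.

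Among p53 and its feedback regulators 1 of 10 members was higher and 4 were lower (median log2 fold change 0.00). The number lower was 2 without Cfp1-/- replicate 1 or without WT replicate 1 and 1 without Cfp1-/- replicate 2. Ppm1d, a phosphatase that ends p53 signalling, was higher at 0.46 and lies on chromosome 11. Mdm4, the partner of Mdm2 in restraining p53, had 9729 and 6540 normalized counts in WT and 4813 and 4986 in Cfp1-/- cells (log2 fold change -0.71, SE 0.172, edgeR adjusted p = 0.0149). Rfwd2 (Cop1), a ubiquitin ligase for p53, fell by 0.80 and the deubiquitinase Usp7 by 0.57 on the log2 scale. With 1 library left out the edgeR adjusted p reached 0.187 for Ppm1d (not passing without either treated Cfp1-/- library, WT replicate 2 or either untreated WT library) and 0.0858 for Mdm4 (without either treated Cfp1-/- library or WT replicate 1), and Usp7 did not pass without Cfp1-/- replicate 2.

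Over all tested genes 16.1% were higher and 11.5% lower, with a median log2 fold change of 0.028. Of 20 p53 targets for cell cycle and growth arrest 0 were higher and 6 were lower (30.0%, median log2 fold change -0.28). The number lower was 1 without Cfp1-/- replicate 2, and 4 without Cfp1-/- replicate 1 or without WT replicate 2, and 1 member was higher under the replicate block, with total count scaling and without WT replicate 1. Gtse1, a microtubule protein that takes p53 out of the nucleus, had 6496 and 6247 normalized counts in treated WT and 3560 and 3324 in treated Cfp1-/- cells (log2 fold change -0.87, SE 0.112, edgeR adjusted p = 0.000949). In untreated cells it was 2921 and 2873 in WT against 3390 and 3211 in Cfp1-/- cells. The genotype difference of Gtse1 changed by -1.08 in log2 under doxorubicin (edgeR adjusted p = 0.0328). Gadd45a and Gadd45b, stress-induced inhibitors of growth, fell by 1.18 and 1.89 on the log2 scale, with overlap in neither gene. Gadd45a did not pass without Cfp1-/- replicate 2 or WT replicate 1, nor Gadd45b without Cfp1-/- replicate 2 or WT replicate 2.

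Of 20 tested p53 targets that act in cell death 0 were higher and 9 were lower (45.0%, median log2 fold change -0.35, against 11.5% and 0.028 over all tested genes). Pmaip1 (Noxa), a BH3-only death protein, had 7832 and 10946 normalized counts in WT and 2810 and 2478 in Cfp1-/- cells (log2 fold change -1.81, SE 0.219, edgeR adjusted p = 0.00072). Aen, an apoptosis-enhancing nuclease, had 4473 and 4345 in WT and 1691 and 1423 in Cfp1-/- cells (log2 fold change -1.48, SE 0.129, edgeR adjusted p = 0.00017). For both genes each WT library was above each Cfp1-/- library, and both were lower in untreated Cfp1-/- cells too, by -2.11 for Pmaip1 and -1.28 for Aen in log2. Perp, a membrane protein of p53-dependent death, fell by 1.04 and Tnfrsf12a, a receptor for the cytokine TWEAK, by 1.09 on the log2 scale, and neither passed without Cfp1-/- replicate 1, Cfp1-/- replicate 2 or WT replicate 2. The list had 4 lower members without any 1 of these libraries and 7 without WT replicate 1. Under the replicate block 2 members were higher and 10 lower, and with total count scaling 1 was higher and 7 lower.

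Of 19 p53 targets in DNA repair and metabolism 3 were higher (15.8%) and 2 were lower (10.5%), with a median of -0.02. These shares were near the 16.1% and 11.5% of all tested genes. Polh, a polymerase that copies past lesions, had 246 and 211 normalized counts in WT and 409 and 406 in Cfp1-/- cells (log2 fold change 0.86, SE 0.171, edgeR adjusted p = 0.00638). Rrm2b, the p53-induced subunit of ribonucleotide reductase, rose by 0.65, and Crip2, a LIM domain protein, fell by 1.28. Rrm2b did not pass without any 1 of the 4 treated libraries. Under the replicate block 4 members of this list were lower, and without either treated Cfp1-/- library 1 was higher and 1 lower, with 1 higher also without WT replicate 2. Among 12 tested pro-survival genes of the Bcl2 and IAP families 2 were higher and 2 were lower (median 0.14), and 3 of these, Bcl2, Naip1 and Naip5, had means under 70 normalized counts in both lines. None of the 12 was higher without either treated Cfp1-/- library or without WT replicate 1.

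**Figure D3:**
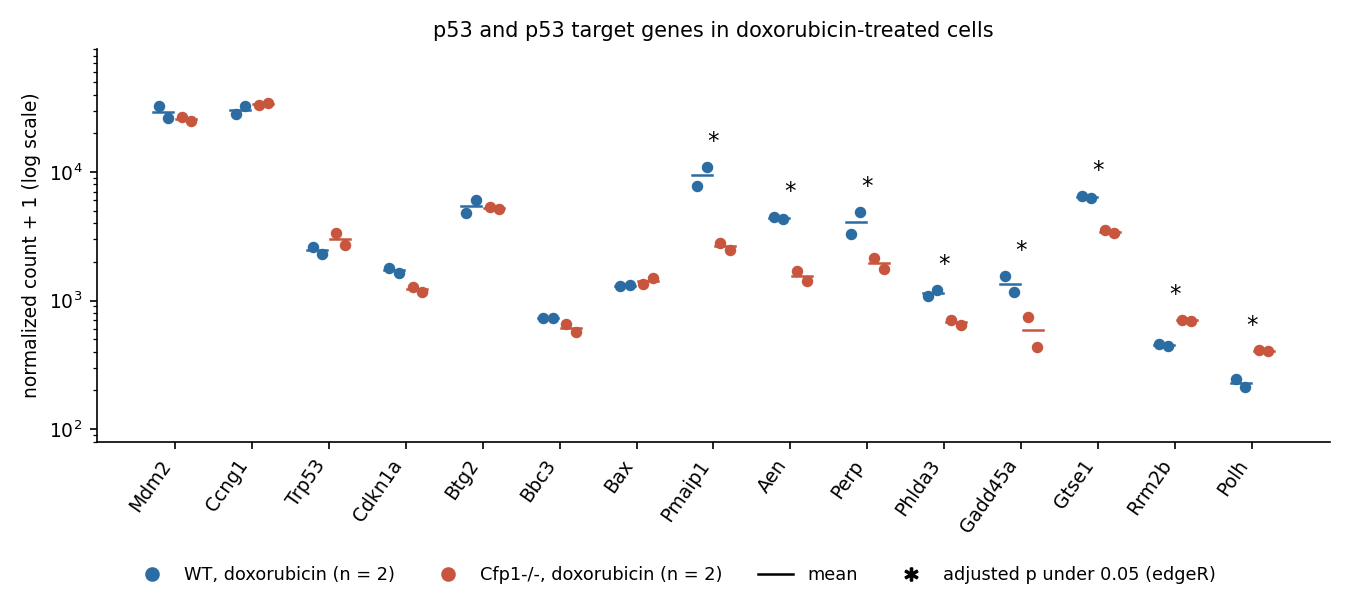
Normalized counts plus 1 (log axis) of p53 and p53 target genes, with 1 point per treated library (WT blue, Cfp1-/- red), a bar at the mean of each group and an asterisk at an edgeR adjusted p under 0.05. Mdm2 and Btg2 overlap between the genotypes, whereas Pmaip1 (7832 and 10946 against 2810 and 2478), Aen and Gtse1 do not.

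Of 31 tested genes of DNA break signalling and the checkpoints, 4 were higher and 5 were lower (median log2 fold change -0.08), and 1 and 2 without Cfp1-/- replicate 2. With all libraries the shares were 12.9% and 16.1%, near the 16.1% and 11.5% of all tested genes. H2afx, the histone variant that is phosphorylated beside breaks, had 2111 and 1972 normalized counts in WT and 1023 and 616 in Cfp1-/- cells (log2 fold change -1.29, SE 0.204, edgeR adjusted p = 0.0023). Clspn, an adaptor for Chk1, fell by 0.75. Rad50, of the complex that senses breaks, rose by 0.65 and Hus1, of the checkpoint clamp, by 0.99, and both lie on chromosome 11. Rad50 did not pass without Cfp1-/- replicate 2. Among 20 topoisomerase and anthracycline handling genes 3 were higher and 7 were lower (median -0.23), and 2 to 4 were lower without either treated Cfp1-/- library or without WT replicate 2. The 3 higher members were drug exporters of the ABC family: Abcc1 had 1036 and 1098 in WT and 1875 and 2096 in Cfp1-/- cells (log2 fold change 0.92, SE 0.132, edgeR adjusted p = 0.00157), and Abcc2 and Abcc3 had 1.01 and 1.35. Abcc2 did not pass when the run with lost reads was kept, nor without Cfp1-/- replicate 2, WT replicate 2 or either untreated Cfp1-/- library, and Abcc3 did not pass without either treated Cfp1-/- library or WT replicate 2. Cbr3, a carbonyl reductase that can reduce anthracyclines, had 322 and 307 in WT and 99.3 and 98.6 in Cfp1-/- cells (log2 fold change -1.64, SE 0.202, edgeR adjusted p = 0.000752).

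Of 38 tested genes of the G1 to S transition and of DNA replication 21 were lower in Cfp1-/- cells (55.3%, against 11.5% of all tested genes) and 1 was higher, with a median log2 fold change of -0.58. The number lower was 10 without Cfp1-/- replicate 2 and 15 without WT replicate 2. E2f2, an activating E2F factor, had 178 and 107 normalized counts in WT and 47.2 and 22.2 in Cfp1-/- cells (log2 fold change -2.01, SE 0.452, edgeR adjusted p = 0.0108). Cdkn1b, the kinase inhibitor p27, had 315 and 280 in WT and 92.3 and 53.1 in Cfp1-/- cells (log2 fold change -2.01, SE 0.251). The members that fell thus included an inhibitor of the cycle beside genes that drive it. Ccnd2, a D-type cyclin, fell by 1.83, and did not pass without either treated Cfp1-/- library, without WT replicate 1 or without untreated Cfp1-/- replicate 1. Cdkn2a, which encodes p16 and p19Arf, was the higher member, at 41.7 and 28.5 in WT and 108 and 131 in Cfp1-/- cells (1.80). E2f2 and Cdkn2a did not pass without Cfp1-/- replicate 2, nor Cdkn2a without WT replicate 2. Of the 6 Mcm helicase genes, named here after their values were seen, Mcm2, Mcm3, Mcm6 and Mcm7 were lower, by 0.40 to 0.92 in log2, and the sliding clamp Pcna fell by 0.97.

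Of 30 genes of G2 and mitosis 0 were higher and 9 were lower (30.0%, median log2 fold change -0.31), 14 were lower under the replicate block, and 3 were lower without Cfp1-/- replicate 2. Of all tested genes 16.1% were higher and 11.5% lower in the main fit. Under the replicate block more of all tested genes were lower too (2634 against 1818), and without Cfp1-/- replicate 2 fewer were. Aurka, a kinase of the spindle poles, had 1156 and 1792 normalized counts in WT and 570 and 517 in Cfp1-/- cells (log2 fold change -1.42, SE 0.199, edgeR adjusted p = 0.00138). Cdc25a, the phosphatase that activates cyclin-dependent kinases, fell by 0.80, Cdk1 by 0.70 and the checkpoint kinase Bub1b by 0.56. Neither Cdk1 nor Bub1b passed without Cfp1-/- replicate 2 or WT replicate 2, nor Bub1b without Cfp1-/- replicate 1. In untreated Cfp1-/- cells 20 of the 38 G1 and replication genes were lower and 3 higher (median -0.52), and 10 of the 30 G2 and mitosis genes were lower and 1 higher (median -0.17). Between the untreated lines 35.3% of all tested genes passed in either direction, and the G2 and mitosis list was near that share.

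The pluripotency network did not move as a whole: of 29 tested members 4 were higher (13.8%), 3 were lower (10.3%) and 22 did not pass (median log2 fold change -0.05). These shares were near the 16.1% and 11.5% of all tested genes. Under the replicate block 10 members were higher and 7 lower. The number higher was 2 without Cfp1-/- replicate 1, and the number lower was 1 without Cfp1-/- replicate 2. Nanog, a core factor of naive pluripotency, had 909 and 505 normalized counts in WT and 2856 and 1639 in Cfp1-/- cells (log2 fold change 1.70, SE 0.353, edgeR adjusted p = 0.00784). Fgf4, the ES cell growth factor that drives ERK signalling, had 1469 and 706 in WT and 6739 and 7075 in Cfp1-/- cells (log2 fold change 2.69, SE 0.306, edgeR adjusted p = 0.000561). In both genes WT replicate 1 was above WT replicate 2, and neither reached the Cfp1-/- libraries. Tbx3, a T-box factor of the naive state, had 375 and 73.8 in WT and 2683 and 1189 in Cfp1-/- cells (log2 fold change 3.16, SE 0.796, edgeR adjusted p = 0.0176). Dppa3, also called Stella, rose by 1.65. Nanog and Tbx3 did not pass without Cfp1-/- replicate 1, nor Tbx3 without WT replicate 2.

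Pou5f1 (Oct4) was lower, at 11996 and 10713 normalized counts in WT and 7194 and 7059 in Cfp1-/- cells (log2 fold change -0.65, SE 0.132, edgeR adjusted p = 0.00697). Sall1, a zinc finger factor, fell by 1.79, and neither gene passed without Cfp1-/- replicate 2. Sox2 had -0.19 (SE 0.233), Sall4 -0.28 (SE 0.223) and Esrrb 1.17 (SE 0.481), and none of these passed, although Esrrb did under the replicate block. Of 31 tested regulators of primed cells and germ layers 3 were higher and 5 were lower (median -0.22), and 6 were higher under the block. The shares were 9.68% and 16.1%, against 16.1% and 11.5% of all tested genes. The number lower was 2 without Cfp1-/- replicate 2 and 3 without Cfp1-/- replicate 1 or without WT replicate 2. Pou3f1 (Oct6), a POU factor of primed and neural cells, had 0 reads in both treated WT libraries and 258 and 193 normalized counts in Cfp1-/- cells, at least 57.7-fold higher with WT at a floor of 3 counts per library. Meis1, a homeobox factor, rose by 2.42 and lies on chromosome 11, and Elf5, a factor of the trophoblast, rose by 2.61 from under 6 normalized counts in each WT library. Lefty1, an inhibitor of Nodal, had 481 and 710 in WT and 60.2 and 102 in Cfp1-/- cells (log2 fold change -2.85, SE 0.577, edgeR adjusted p = 0.00695), and did not pass without Cfp1-/- replicate 1. Elf5 did not pass without any 1 of the 4 treated libraries.

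Of 22 tested feedback genes of FGF-ERK signalling 8 were lower (36.4%, against 11.5% of all tested genes), the ligand Fgf4 was higher and 13 did not pass, with a median log2 fold change of -0.52. Dusp4, a phosphatase that switches off ERK, had 254 and 527 normalized counts in WT and 70.2 and 55.1 in Cfp1-/- cells (log2 fold change -2.62, SE 0.357, edgeR adjusted p = 0.00119). Fgfbp1, a carrier of FGFs, fell by 2.04 and Etv1, an ETS factor, by 1.95. The number lower was 4 without Cfp1-/- replicate 2, and 3 members were higher under the replicate block. Immediate-early genes, many of which ERK induces, had 0 higher and 6 lower of 26 (23.1% lower, median -0.46). Of all tested genes 16.1% were higher and 11.5% lower. Among these Junb (-1.91, SE 0.254), Ier2 (-1.89, SE 0.259) and Klf6 (-2.35, SE 0.450) fell, of which Klf6 did not pass without Cfp1-/- replicate 1.

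The next 2 lists stand beside 16.1% higher and 11.5% lower over all tested genes. For the LIF and Stat3 pathway 0 of 19 genes were higher and 4 were lower (21.1%, median -0.10). Among them was Il6st, the shared receptor gp130, with 1358 and 1505 normalized counts in WT and 607 and 467 in Cfp1-/- cells (log2 fold change -1.39, SE 0.168, edgeR adjusted p = 0.000706). Socs2 and Pim1, targets of Stat signalling, fell by 1.29 and 1.22, and neither passed without Cfp1-/- replicate 2, nor Pim1 without WT replicate 1. For the Nodal and BMP pathway 0 of 30 were higher and 9 were lower (30.0%, median -0.20), and 4 and 5 were lower without Cfp1-/- replicates 1 and 2. Under the replicate block 2 genes of the first list and 1 of the second were higher. Id1 and Id3, targets of BMP that block differentiation, had log2 fold changes of -2.91 (SE 0.480) and -3.10 (SE 0.420). The levels of Id1 were 171 and 311 in WT against 40.1 and 23.2 in Cfp1-/- cells. Nodal itself did not pass (0.15, SE 0.158).

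Of 45 Wnt pathway genes 7 were higher (15.6%) and 6 lower (13.3%), close to the 16.1% and 11.5% of all tested genes, and 32 did not pass (median log2 fold change 0.10). Without Cfp1-/- replicate 2 these numbers were 3 and 1, and 11 were higher under the replicate block. Of the 7 higher 5 lie on chromosome 7 or 11. With these chromosomes left out of the scaling and the test, which takes those 5 away, 2 were higher. Beside Znrf3, the ligands Wnt3a (2.09, SE 0.299) and Wnt11 (2.19, SE 0.464) rose, Wnt11 from 7.81 and 15.8 to 44.2 and 64.7 normalized counts. Sp5, a target of Wnt in ES cells, was lower from a low level, with 15.6 and 45.3 in WT and 3.01 and 1.93 in Cfp1-/- cells (-3.57). Wnt11 and Sp5 did not pass without Cfp1-/- replicate 2, nor Sp5 without Cfp1-/- replicate 1 or WT replicate 2. Wnt3 (0.40, SE 0.419) and Wnt9a (0.27, SE 0.209) did not pass.

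**Figure D4:**
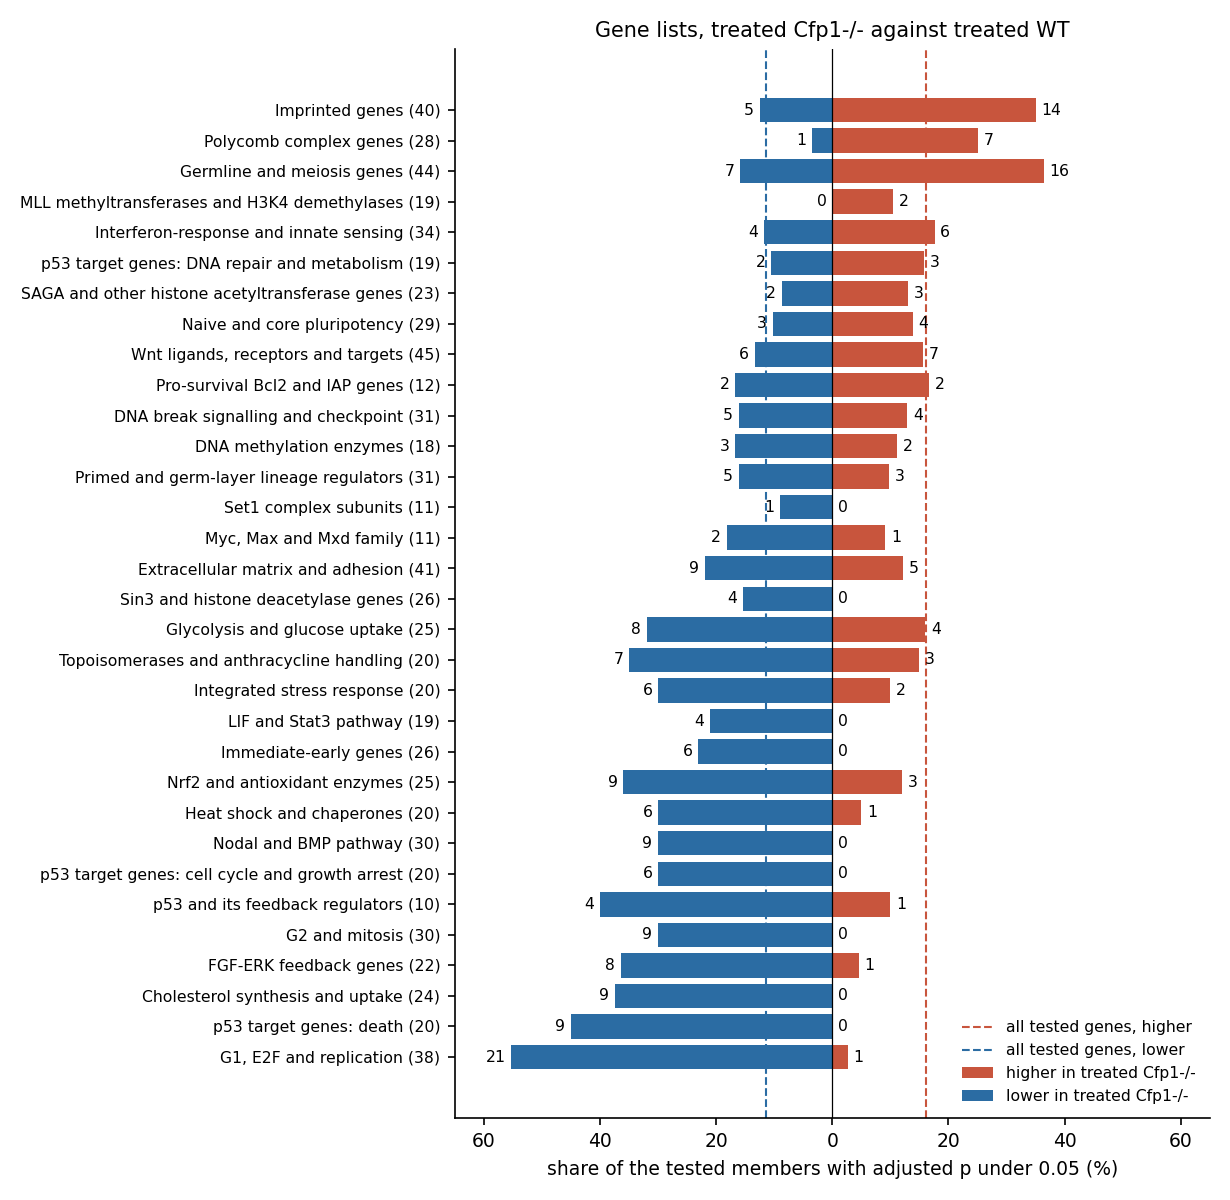
Share of tested members (percent, x axis) that were higher (red, to the right) and lower (blue, to the left) in treated Cfp1-/- cells for each of the 32 gene lists, with the number of members beside each bar and dashed lines at the shares over all tested genes (16.1% higher and 11.5% lower). The G1 and replication list has the longest bar to the lower side (55.3%) and the germline list the longest to the higher side (36.4%).

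Most members of each list of chromatin regulators did not pass. The same held for all tested genes, of which 16.1% were higher and 11.5% lower. Of 19 MLL methyltransferase and H3K4 demethylase genes 2 were higher and 0 lower: Kdm5d, given above, and Mll3, at 3656 and 2373 normalized counts in WT and 6695 and 5077 in Cfp1-/- cells (log2 fold change 0.99, SE 0.284). Mll3 did not pass without either treated Cfp1-/- library or WT replicate 2, and 4 members were higher under the replicate block. Of 26 Sin3 and histone deacetylase genes 0 were higher and 4 were lower (median -0.21), led by Mta1, a subunit of the NuRD complex, with 2431 and 2139 in WT and 879 and 930 in Cfp1-/- cells (log2 fold change -1.31, SE 0.162, edgeR adjusted p = 0.000752). Of 23 genes of SAGA and other acetyltransferases 3 were higher, all on chromosomes 7 and 11, and 2 lower. Without either treated Cfp1-/- library 1 was higher, without any 1 treated library 1 was lower, and under the replicate block 5 were higher.

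Of 28 Polycomb genes 7 were higher and 1 was lower (median 0.24), beside 16.1% higher and 11.5% lower over all tested genes. Of the 7 higher 6 lie on chromosome 11. With chromosomes 7 and 11 left out, which takes those 6 away, 1 was higher, and the median over members on other chromosomes was 0.00. The number higher was 3 without Cfp1-/- replicate 1 or without WT replicate 2, and 4 were lower under the replicate block. Suz12, a core subunit of PRC2, had 3842 and 2756 normalized counts in WT and 8376 and 5365 in Cfp1-/- cells (log2 fold change 1.08, SE 0.264, edgeR adjusted p = 0.0152), and did not pass without Cfp1-/- replicate 1 or WT replicate 2. E130012A19Rik had 2.34, and Cbx8, a reader in PRC1, had 2.88 from 5.21 and 2.11 normalized counts in WT. Cbx8 did not pass in the same fits in which Suz12 did not. Of 18 DNA methylation genes 2 were higher and 3 lower, to be read beside the same shares of all tested genes. Under the replicate block 5 of them were higher, and more of all 15765 tested genes were higher too (3409 against 2533). Uhrf1, which brings Dnmt1 to replicating DNA, had 5094 and 4296 in WT and 2306 and 1841 in Cfp1-/- cells (log2 fold change -1.16, SE 0.145, edgeR adjusted p = 0.000829), Dnmt1, the maintenance methyltransferase, fell by 0.42, and Tdg, a glycosylase that removes oxidised methylcytosine, rose by 1.07.

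Germline and meiosis genes had the largest share of higher members of any of the 32 lists, with 16 of 44 higher (36.4%, against 16.1% of all tested genes) and 7 lower, and a median log2 fold change of 0.49. Of the 16 higher 3 lie on chromosome 7 or 11, and the median over members on other chromosomes was 0.32. With 1 treated library left out 10 to 13 were higher and 4 to 8 lower. Xlr3a, an X-linked gene of the lymphocyte-regulated family, had 11.7 and 15.8 normalized counts in WT and 564 and 724 in Cfp1-/- cells (log2 fold change 5.54, SE 0.304, edgeR adjusted p = 1.03e-05), and its reads may be shared with close copies. Hormad2, of the meiotic chromosome axis, had 74.2 and 43.2 in WT and 488 and 390 in Cfp1-/- cells (2.94, SE 0.314). Dazl, an RNA-binding protein of germ cells, had 288 and 253 in WT and 1650 and 919 in Cfp1-/- cells (2.27, SE 0.275). Sycp3, of the synaptonemal complex, went the other way, with 1749 and 2125 in WT and 223 and 269 in Cfp1-/- cells (-2.96, SE 0.171, edgeR adjusted p = 1.38e-05), as did the meiotic cohesin Stag3 (-1.94, SE 0.171). The 6 genes of the list named so far had the same sign in untreated cells, whereas Tex15, a gene of meiotic recombination, was lower in treated (-0.56) and higher in untreated Cfp1-/- cells (1.47).

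Of 40 tested imprinted genes 14 were higher (35.0%) and 5 were lower (12.5%), against 16.1% and 11.5% of all tested genes (median log2 fold change 0.24). Of the 14 higher 10 lie on chromosome 7 or 11. With these chromosomes left out, which takes those 10 away, 4 were higher, and the median on other chromosomes was 0.02. With 1 treated library left out 6 to 9 were higher and 2 to 5 lower. Nnat, an imprinted proteolipid gene of chromosome 2, had 10.4 and 33.7 normalized counts in WT and 265 and 508 in Cfp1-/- cells (log2 fold change 4.10, SE 0.552, edgeR adjusted p = 0.00115). Igf2, the paternally expressed growth factor of chromosome 7, went against its chromosome, with 414 and 436 in WT and 76.3 and 49.3 in Cfp1-/- cells (-2.74, SE 0.323, edgeR adjusted p = 0.000642).

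Differences ran with the chromosome a gene lies on. The median log2 fold change between the treated lines was 0.50 on chromosome 11 (1279 genes), 0.46 on chromosome 7 (1283 genes) and 0.21 on chromosome 19, and it was -0.26 on chromosome 8. It lay between -0.13 and 0.10 on 16 other chromosomes, and was 1.07 over 8 genes of chromosome Y. The replicates gave near-identical medians when taken pairwise by number, 0.44 and 0.44 for chromosome 7, 0.47 and 0.49 for chromosome 11, -0.23 and -0.25 for chromosome 8, and 0.16 and 0.23 for chromosome 19. In untreated cells the medians were 0.53 on chromosome 11, 0.54 on chromosome 7, 0.30 on chromosome 19 and -0.21 on chromosome 8. Chromosomes 7 and 11 held 16.3% of the tested genes, 36.9% of all higher genes, 4.4% of all lower genes, 32.3% of the called higher genes and 7.45% of the called lower genes. On chromosome 11, 81.2% of genes had a fold change above 0. Copy number of these lines was not measured here, and its part in the result was not tested.

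**Figure D5:**
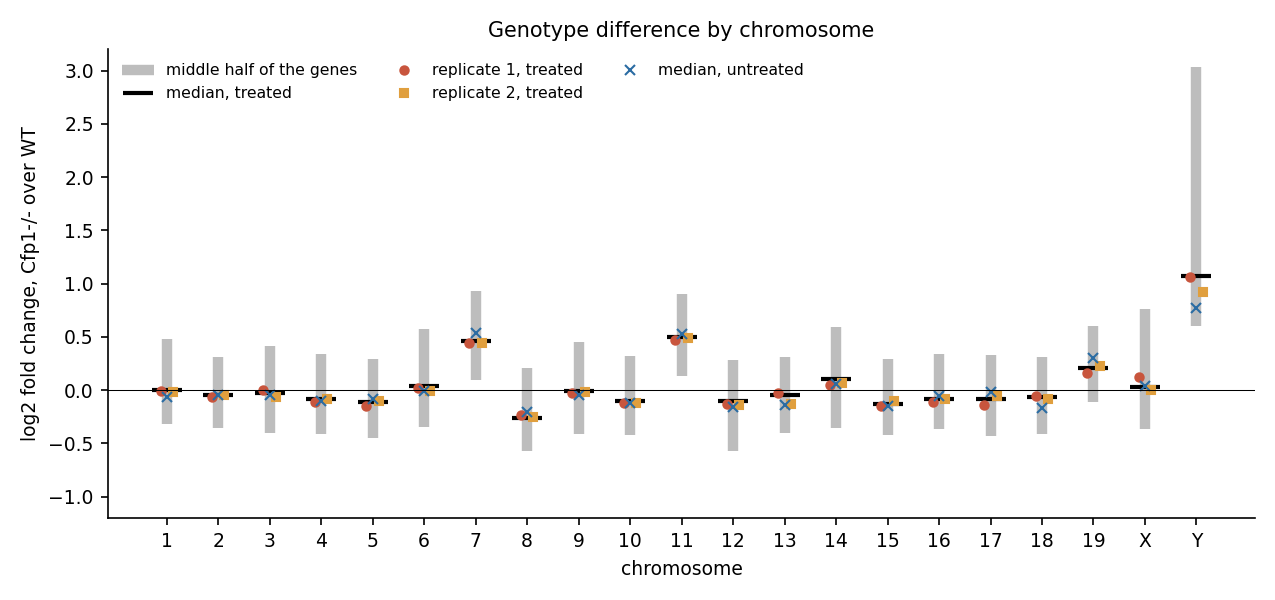
Median log2 fold change between Cfp1-/- and WT cells per chromosome in treated cells (black bar) and untreated cells (cross), with the treated medians of the replicates paired by number (points) and the interquartile range over genes (grey). Chromosomes 7 and 11 stand near 0.50 in both conditions, chromosome 8 lies below 0 and most others lie near 0.

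Both treated lines carried the defining markers of ES cells. Of the 10 ES cell markers Nanog was higher, Pou5f1 lower and 8 did not pass, and their summed normalized counts were 45100 and 37100 in WT and 39000 and 32200 in Cfp1-/- cells. Markers of 4 other cell types were read to see what else moved with genotype. The sum of 7 neural progenitor markers was 1170 and 3360 in WT and 537 and 601 in Cfp1-/- cells, most of it from Nes, an intermediate filament gene, at 1074 and 3311 in WT and 477 and 544 in Cfp1-/- cells. The sum of 10 fibroblast or feeder cell markers was 1850 and 3350 in WT and 668 and 814 in Cfp1-/- cells, mainly from Tagln, a smooth muscle and fibroblast protein, at 650 and 2603 against 173 and 173. The sum of 10 trophoblast markers was 2490 and 4550 in WT and 1700 and 1380 in Cfp1-/- cells. Among the treated libraries these 3 sums were higher in each WT library than in each Cfp1-/- library, and highest in WT replicate 2, as were Krt8 and Klf6. Untreated WT replicate 2 stood higher still for the neural progenitor sum (3800), the trophoblast sum (5170), Krt8 (2430) and Klf6 (6211). Its fibroblast sum (2980) was not higher. The sums rest on a few abundant members, and the lists did not move as a whole. Of 5 tested neural progenitor markers 0 were higher and 2 lower with a median log2 fold change of 0.85, of 9 trophoblast markers 2 were higher and 2 lower with 0.19, and of 9 fibroblast markers 1 was higher and 3 lower with -0.33. Lum, a defining gene of fibroblasts, and Cdx2, a defining gene of trophoblast, had at most 2.11 normalized counts in any treated library. Markers of primitive endoderm summed to 397 and 382 in WT and 696 and 602 in Cfp1-/- cells, with 1 of 8 tested higher and 0 lower. The part of such cells in the results was not tested.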

How the data were processed

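Per the labels, total RNA was depleted of rRNA with Ribo-Zero and made into stranded libraries, and the submitters' processing notes name STAR 2.2.1, HTSeq and DESeq and the build mm9. The authors aligned paired reads to NCBIM37 and counted those on the exons of Ensembl genes on the sense strand, which leaves out reads shared by overlapping genes or near-identical copies. The deposited raw counts (22375 genes, no normalization) were used, and the deposited table of normalized counts was not used. Of the genes, 22324 were found by identifier in the NCBIM37 annotation, and 131 symbols are carried by more than 1 gene. The members and gene lists were chosen with earlier results of these data known.

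Runs were summed per biological replicate, with the affected run of treated Cfp1-/- replicate 1 left out for chromosome 19 past 5.8 Mb, X and Y through an offset per gene. All 8 libraries in 4 groups entered 1 fit in edgeR 4.0.16 (R 4.3.3) with filterByExpr, TMM factors, glmQLFit and glmQLFTest. P-values were adjusted by Benjamini-Hochberg over 15765 genes, and each standard error is the fold change divided by the root of its F value. Size factors for normalized counts were 0.768 to 1.17. The scripts were tested on simulated data. A floor of 3 counts per library stood for 0. Values with 1 library left out come from the same fit, in which the lone library is assumed to vary like the other groups.

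Named genes were Cxxc1, the 10 called genes with the largest differences in each direction whose libraries did not overlap, up to 4 members of each list with the largest differences among those that passed, members the study names, up to 10 called genes with the largest interaction, and marks of the line, and a few genes that the rule takes in are not reported here. Setd1a, Ash2l, Bax, Trp53, Nodal, Pcna, the Mcm genes, Dnmt1, Stag3, Tex15 and single marker genes fall outside this rule and were chosen after their values were seen. Windows of RefSeq promoters covered 77.3% of tested genes, too few for the planned check, so windows at gene 5′ ends of NCBIM37 were used instead, a choice made after seeing the data. Libraries with the same replicate number deviated together (correlation of 0.131 to 0.407 across genes in the 6 pairs of groups). No source used here says what the number stands for. The main fit did not pair libraries by it. The number was used only in the alternative fit with a replicate block and in the chromosome medians per replicate. Intervals and floors cover counting error only.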

Additional observations from a re-analysis of the deposited data

Results flagged for a closer look

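The genotype difference differed between treated and untreated cells, by an interaction test across all genes, in 42 genes (edgeR quasi-likelihood, adjusted p under 0.05). In 19 of these the genotypes did not differ by the test in treated cells, in 15 the difference had the same sign and was smaller, and in 4 it did not pass in untreated cells. Of the 42, 10 were called between the treated lines. The difference between treated and untreated genotype effects was positive in Sned1 (2.11), Sfmbt2 (2.03), Nek3 (1.84), Znrf3 (1.64) and Acad8 (1.34), and negative in Myo7a (-3.05), Ly6g6e (-2.42), Mlana (-2.23), Cd68 (-1.96) and Mycn (-1.79), all in log2. Gtse1, a member of the p53 target lists that was not called, had -1.08. Across fits with other settings or with 1 library left out, the adjusted p of the interaction reached 0.155 for Myo7a and 0.280 for Mycn and Mlana. In groups of 2 replicates no test for an outlying library could be made.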

How the results depend on the processing

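In 19 alternative fits none of the 146 named genes that passed the test changed sign, and 13 of them lost significance in at least 1 fit that kept all libraries: Bcl2, Rtl1, Naip5, Naip1, Mxd3, Tmem173, Ifit3, Abcc2, Grem1, Prkab1, Tada2b, Rbbp7 and Eif2s3y. The replicate block gave 3409 higher and 2634 lower genes, 271 and 162 of them called, and of the named genes it changed only the outcome of the test for Esrrb, which passed. The interaction was passed by 304 genes under the replicate block, 237 with DESeq2's Wald test, 163 without a filter on low counts and 23 without chromosomes 7 and 11, a fit with fewer genes tested that also had 1192 lower genes. All 42 genes of the main fit were among those found by the block, DESeq2 and the unfiltered fit. Called genes were 455 higher and 337 lower at a fold limit of 2, 90 and 38 at 4, and 1260 and 396 without a limit on the mean. With 1 library left out, 1104 to 2459 genes were higher and 584 to 1944 lower, 231 to 310 and 134 to 190 were called, and 0 to 19 passed the interaction. The chromosome medians were 0.55 (7), -0.16 (8), 0.59 (11) and 0.31 (19) with total count scaling and 0.44 (7), -0.28 (8) and 0.48 (11) with DESeq2's size factors, and with 1 library left out 0.45 to 0.48 (7), -0.25 to -0.20 (8), 0.46 to 0.53 (11) and 0.21 to 0.25 (19). Genes that did not pass took the other sign in some fits: Btg2 at 0.07 without chromosomes 7 and 11 and with total counts and from -0.18 to 0.15 with 1 library left out, over which Sall4 ran from -0.72 to 0.05 and Sox2 from -0.44 to 0.1, and Uty at -0.14 with the affected run kept. RefSeq windows gave CpG-rich shares of 66.4% over all tested, 47.6% over called higher and 61.5% over called lower genes, on too few genes to be used. The causes were not tested. With 2 libraries a group, small differences of low genes could not be detected.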

Other observations

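Several lists of stress and metabolic genes had more lower than higher members in treated Cfp1-/- cells, beside 11.5% lower and 16.1% higher over all tested genes, and most members of each did not pass. Of 20 heat shock and chaperone genes 6 were lower and 1 was higher (median log2 fold change -0.43), and 12 were lower under the replicate block. Hsp90ab1, the constitutive cytosolic Hsp90, had 160112 and 174822 normalized counts in WT and 74567 and 75238 in Cfp1-/- cells (log2 fold change -1.14, SE 0.124, edgeR adjusted p = 0.000489). Of 25 glycolysis genes 8 were lower and 4 were higher (median -0.30), among them Eno1, which makes phosphoenolpyruvate, with 15478 and 16921 in WT and 5981 and 6642 in Cfp1-/- cells (-1.34, SE 0.147), and Tpi1 (-1.79, SE 0.298). Gapdh, another glycolytic enzyme that is often used as a reference gene, had 13393 and 14090 in WT and 5729 and 5733 in Cfp1-/- cells (-1.24, SE 0.139, edgeR adjusted p = 0.000531), and Actb had -0.60 (SE 0.151). Of 20 genes of the integrated stress response 6 were lower and 2 were higher (10 lower under the block, 1 and 2 lower without Cfp1-/- replicates 1 and 2, and 2 without WT replicate 2), with Atf4, its central transcription factor, at 1641 and 2063 in WT and 505 and 482 in Cfp1-/- cells (-1.89, SE 0.181).

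Of 24 cholesterol synthesis and uptake genes 9 were lower and 0 higher (37.5%, median -0.35), and 3 were lower without either treated Cfp1-/- library and 4 without WT replicate 2. Of 25 Nrf2 and antioxidant genes 9 were lower and 3 higher (3 lower without Cfp1-/- replicate 2), and of 34 interferon-response genes 6 were higher and 4 lower (10 lower under the block, and 1 to 3 higher with 1 treated library left out). The lists of this paragraph stand beside 16.1% higher and 11.5% lower over all tested genes. The interferon-response shares, 17.6% higher and 11.8% lower, were close to these. Ifit2, an interferon-induced RNA-binding protein on chromosome 19, had 27.3 and 36.9 normalized counts in WT and 238 and 275 in Cfp1-/- cells (3.01, SE 0.319, edgeR adjusted p = 0.000416). Of 11 genes of the Myc, Max and Mxd family 1 was higher and 2 were lower. Of 41 extracellular matrix and adhesion genes 5 were higher and 9 lower (2 to 4 lower without either treated Cfp1-/- library or without WT replicate 2), with the basement membrane genes Col4a1 (504 and 678 in WT, 2498 and 2720 in Cfp1-/- cells, log2 fold change 2.16) and Lama1 (1007 and 815 in WT, 4192 and 4865 in Cfp1-/- cells, 2.34) higher, and the fibrillar collagen Col3a1 (-4.72) and the matrix glycoprotein Thbs1 (-2.23) lower. Thbs1 did not pass without Cfp1-/- replicate 2.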
